A study of Homo sapiens with 12 samples.

Results

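The ZIC genes encode C2H2 zinc finger transcription factors whose finger domain is related to that of the GLI proteins, the effectors of Hedgehog signalling. The family had 5 genes in the counts, and 4 of them, ZIC1, ZIC2, ZIC4 and ZIC5, are described here across 12 RNA-seq samples of human neural progenitor cells (NPCs) and their derivatives. The genes were chosen as a family from their measured levels in these same samples, so their own levels and fold changes are given as a description, without a p-value. All 4 genes passed the filter on low counts, which required 20 counts on average across the samples, as did 13454 of the 58302 genes counted.

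The samples formed 6 groups of 2. NPCs were derived from H1, a human embryonic stem cell line, either wild type (WT) or deleted for both UTX (KDM6A) and JMJD3 (KDM6B), the demethylases that remove the repressive histone mark H3K27me3. The double knockout line, H1-JMJD3-/-/UTX-/Y, is called dKO below, and its deletions took out catalytic sites of the JmjC domain. NPCs were sampled as neural spheres at passage 2 (a number that comes from the study's text, since the labels name a passage for the later NPCs only) and at passage 4. They were also sampled after 28 days of spontaneous differentiation (WT-D28 and dKO-D28), started from passage 2 cells. For differentiation, the FGF2 and EGF of the NPC medium were withdrawn, and GDNF, BDNF and cAMP were added. Every group shared the H1 background and the same neural induction with inhibitors of SMAD signalling. How many clones stand behind the dKO samples, and whether the 2 samples of a group came from separate cultures, is not given in the sources used here, so the errors below measure the spread between these samples, which may be technical.

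ZIC proteins act early in the neural plate and then mainly in the dorsal neural tube, where they keep progenitors dividing, and in the neural crest. ZIC1 and ZIC4 are known from the cerebellar granule lineage and the developing meninges, and their joint deletion is linked to Dandy-Walker malformation. Mutations of ZIC2 are a known cause of holoprosencephaly, a failure of the forebrain to divide at the midline, and ZIC5 is linked to neural crest and forebrain formation.

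The 4 genes lie in 2 head-to-head pairs (hg38, GENCODE v44). ZIC1 (ENSG00000152977) covers chr3:147393422-147510293 on the plus strand, and its canonical transcript has 3 exons. ZIC4 (ENSG00000174963) covers chr3:147386046-147406809 on the minus strand, with 5 exons in the canonical transcript. The canonical starts of this pair are 2822 bp apart, and 176 exonic bases, 2.58% of those of ZIC1, are annotated in both genes. ZIC2 (ENSG00000043355, chr13:99981784-99986765, plus strand, 3 exons) and ZIC5 (ENSG00000139800, chr13:99962964-99971767, minus strand, 2 exons) start 10017 bp apart and share no exonic base. The 250 bases before each canonical start are shown because the members of a pair are compared below. The capitals mark every copy of CCAAT, on either strand (RefSeq promoter windows, GRCh38.p14, 5′ to 3′ on the strand of the gene).
ZIC1, chr3:147409115-147409364, plus strand: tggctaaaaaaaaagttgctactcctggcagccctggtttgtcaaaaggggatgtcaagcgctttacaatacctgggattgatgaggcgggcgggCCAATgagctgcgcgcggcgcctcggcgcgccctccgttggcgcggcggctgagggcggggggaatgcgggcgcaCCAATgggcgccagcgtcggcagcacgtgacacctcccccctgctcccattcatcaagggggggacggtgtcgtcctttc
ZIC4, chr3:147406544-147406793, minus strand: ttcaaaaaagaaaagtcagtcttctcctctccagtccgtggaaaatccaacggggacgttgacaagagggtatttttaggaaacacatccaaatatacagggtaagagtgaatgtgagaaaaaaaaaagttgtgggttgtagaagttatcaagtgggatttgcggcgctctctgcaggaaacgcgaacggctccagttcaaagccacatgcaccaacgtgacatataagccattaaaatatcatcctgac
ZIC2, chr13:99981534-99981783, plus strand: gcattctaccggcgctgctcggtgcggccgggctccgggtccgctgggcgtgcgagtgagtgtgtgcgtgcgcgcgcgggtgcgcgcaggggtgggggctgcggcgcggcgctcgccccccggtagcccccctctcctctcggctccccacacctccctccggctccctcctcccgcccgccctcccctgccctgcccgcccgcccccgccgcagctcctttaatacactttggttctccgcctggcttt
ZIC5, chr13:99971768-99972017, minus strand: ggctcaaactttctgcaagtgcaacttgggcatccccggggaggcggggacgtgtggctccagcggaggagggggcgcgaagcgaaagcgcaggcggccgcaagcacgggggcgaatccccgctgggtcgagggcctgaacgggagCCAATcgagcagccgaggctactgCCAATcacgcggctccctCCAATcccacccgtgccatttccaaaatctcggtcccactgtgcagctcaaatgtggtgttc

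The windows differed within each pair. The ZIC1 window was 64.4% G and C with 23 CpG dinucleotides, against 42.8% and 9 for ZIC4. Both windows precede the canonical starts but lie inside the annotated genes, so their values depend on the start used. ZIC2 had the richest window, at 75.6% and 31 CpG dinucleotides, against 64.8% and 21 for ZIC5, where the median of 34943 human promoter windows of the same length was 11. CCAAT occurred 2 times upstream of ZIC1 (155 and 80 bases before the start) and 3 times upstream of ZIC5 (104, 80 and 62 bases before it), and was not found in the other windows. It is a common word, present in 32% of all windows. CAGCAGG (the core of a ZIC site, in 8.48% of all windows), GACCACCCA (a GLI site, in 0.2%) and TATAAA (in 10.8%), each searched on both strands, were not found in any of the 4 windows. A match or its absence describes these letters only, since no binding was measured here.

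Depth set how finely each gene could be read. Total counts ran from 756942 to 1438807 in passage 2 NPCs and from 3174410 to 10601172 in the other groups. A value of 3 counts corresponded to between 0.302 and 3.92 CPM (counts rescaled to a common library size, adjusted by TMM). Replicates differed by more than counting noise: the chi-square of their counts, divided by its degrees of freedom, was 1.55 to 3.30 in 5 groups and 14.04 between the dKO-D28 samples. The knockout removes catalytic exons while the counts cover whole genes, so KDM6A and KDM6B counts do not check the labels: the log2 difference of KDM6A, dKO minus WT, was -0.54, -0.81 and -0.04 at passage 2, passage 4 and day 28 (edgeR adjusted p = 0.381, 0.00691 and 0.890), and that of KDM6B was -0.13, 0.61 and -0.40 (adjusted p = 0.685, 0.00022 and 0.00387).

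ZIC1 transcripts were high in dKO cells at every stage and, among WT groups, highest after differentiation. In WT NPCs at passage 2, ZIC1 measured 65.3 and 154 CPM (50 and 207 counts), the lowest group and the one whose samples lay furthest apart by ratio (2.36-fold). It measured 304 and 395 CPM in dKO NPCs at passage 2, 188 and 199 CPM in WT NPCs at passage 4, and 495 and 488 CPM in dKO NPCs at passage 4. At day 28 it measured 438 and 442 CPM in WT-D28 and 479 and 429 CPM in dKO-D28. The 2 genotypes overlapped at day 28 and did not overlap at either passage. The highest group mean, dKO at passage 4, was 4.48 times the lowest.

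ZIC4, the neighbour of ZIC1, was lower in every WT group than in every dKO group. Its values were 13.1 and 34.3 CPM (10 and 46 counts) in WT NPCs at passage 2, where the exact Poisson 95% interval of the first sample ran from 6.26 to 24.0 CPM for counting error alone. They were 33.4 and 37.8 CPM in WT NPCs at passage 4 and 36.1 and 34.3 CPM in WT-D28, groups that overlapped each other. The passage 4 samples also overlapped those of passage 2. In dKO cells they were 81.1 and 89.1 CPM at passage 2, 117 and 112 CPM at passage 4 and 213 and 122 CPM at day 28. The dKO-D28 samples thus lay further apart than the other dKO samples, and the lower of them still exceeded every other sample. Between the lowest and the highest group mean lay a factor of 7.08.

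ZIC2 was highest in dKO NPCs at passage 4. It measured 77.0 and 82.0 CPM in WT NPCs at passage 2, 111 and 126 CPM in WT NPCs at passage 4 and 76.5 and 68.2 CPM in WT-D28. In dKO cells it measured 119 and 134 CPM at passage 2, 426 and 417 CPM at passage 4 and 223 and 263 CPM at day 28. The dKO group at passage 2 overlapped WT NPCs at passage 4, while the dKO groups at passage 4 and day 28 lay above every WT sample. The highest group mean was 5.83 times the lowest.

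ZIC5, the neighbour of ZIC2, had the widest range of the 4 genes, with a factor of 13.5 between dKO NPCs at passage 4 and WT-D28. It measured 30.0 and 34.3 CPM in WT NPCs at passage 2, 37.5 and 60.1 CPM in dKO NPCs at passage 2, 48.1 and 49.6 CPM in WT NPCs at passage 4, and 125 and 128 CPM in dKO NPCs at passage 4. In WT-D28 it was down to 10.9 and 7.85 CPM (91 and 78 counts), against 71.3 and 104 CPM in dKO-D28. WT NPCs at passage 4 and dKO NPCs at passage 2 overlapped, and the other neighbours in the order of group means did not.

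**Figure D1:**
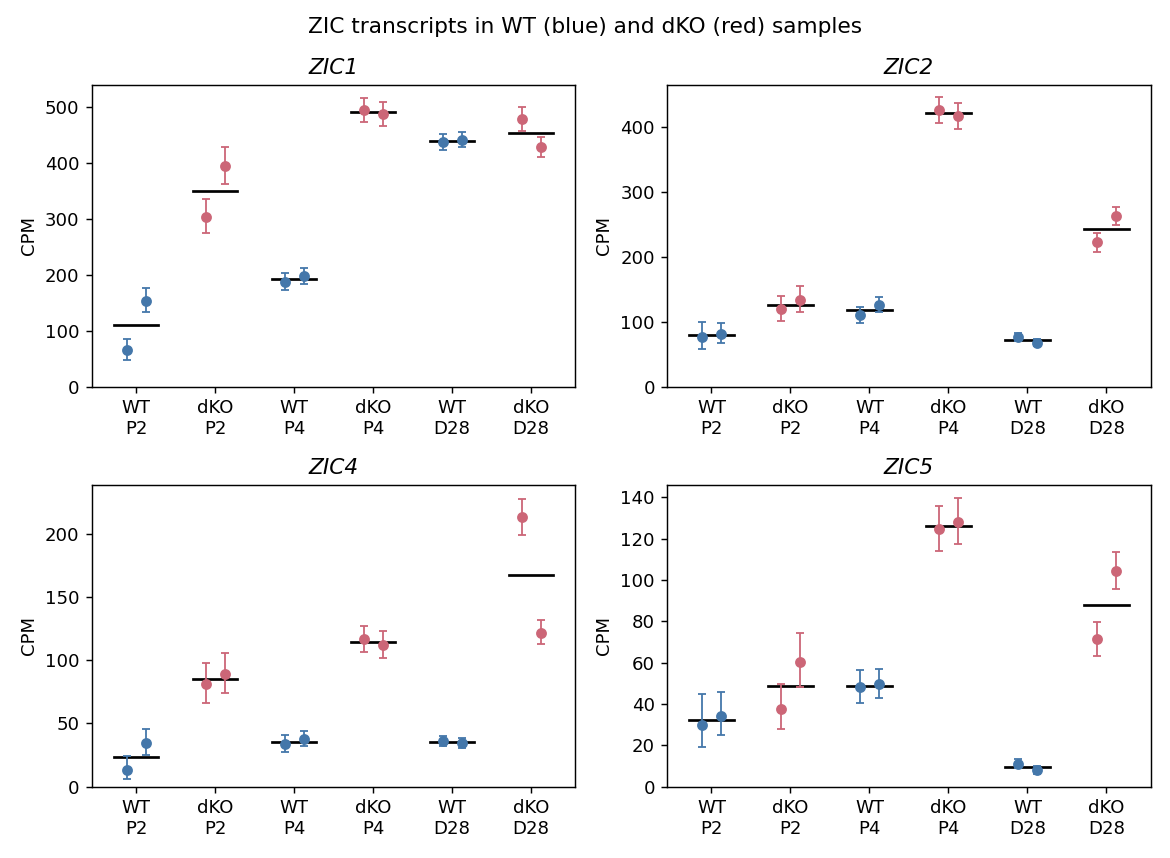
Level of each ZIC gene (y axis, CPM, starting at 0) in the 2 samples of each group (x axis: WT and dKO at passage 2, passage 4 and day 28). Points are samples with exact Poisson 95% intervals and black bars are group means. ZIC1 reached 438 and 442 CPM in WT-D28, within the range of dKO-D28, while ZIC5 stood at 10.9 and 7.85 CPM there.

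To describe how the family differed between the WT and dKO samples, dKO was set against WT at each stage in a single edgeR fit of the 6 groups. A gene was called where its fold change exceeded 2 and its unadjusted p was under 0.05, the study's own thresholds. At passage 2, ZIC1 was 3.03-fold higher in dKO (log2 difference 1.60, SE 0.28) and ZIC4 was 3.27-fold higher (1.71, SE 0.39), and both were called. The differences of ZIC2 (0.67, SE 0.15) and ZIC5 (0.59, SE 0.29) were under the fold threshold, although the samples of the genotypes did not overlap. So 2 of the 4 members were called at this stage, where 4.42% of all tested genes were. The sizes for ZIC1 and ZIC4 rested on which WT sample was used: the log2 difference was 1.181 and 1.31 without WT sample 1, the library with the lowest total, and 2.42 and 2.70 without WT sample 2, with both genes called in each case. ZIC4 was no longer called with an adjusted p, nor ZIC1 in a fit of these 4 samples alone.

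At passage 4 the 4 members were all called higher in dKO, against a background of 22.3% of tested genes called in either direction. The log2 differences were 1.35 for ZIC1 (SE 0.24), 1.68 for ZIC4 (SE 0.28), 1.83 for ZIC2 (SE 0.12) and 1.37 for ZIC5 (SE 0.20). On the linear scale, ZIC2 was 3.55-fold higher, and the other 3 lay between 2.54-fold and 3.20-fold. Their median log2 difference was 1.52, and that of all tested genes was 0.02.

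At day 28, 3 of the 4 members were called higher in dKO, where 24.2% of tested genes were called. ZIC5 was 9.44-fold higher (log2 difference 3.24, SE 0.22), ZIC4 was 4.74-fold higher (2.25, SE 0.26) and ZIC2 was 3.36-fold higher (1.75, SE 0.12). ZIC1 differed by 0.05 (SE 0.23) and its samples overlapped between the genotypes. The members' median was 2.00, against 0.0026 over the tested genes. Of the pair ZIC1 and ZIC4, therefore, 1 gene was called and the other was not, while both genes of the pair ZIC2 and ZIC5 were called.

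**Figure D2:**
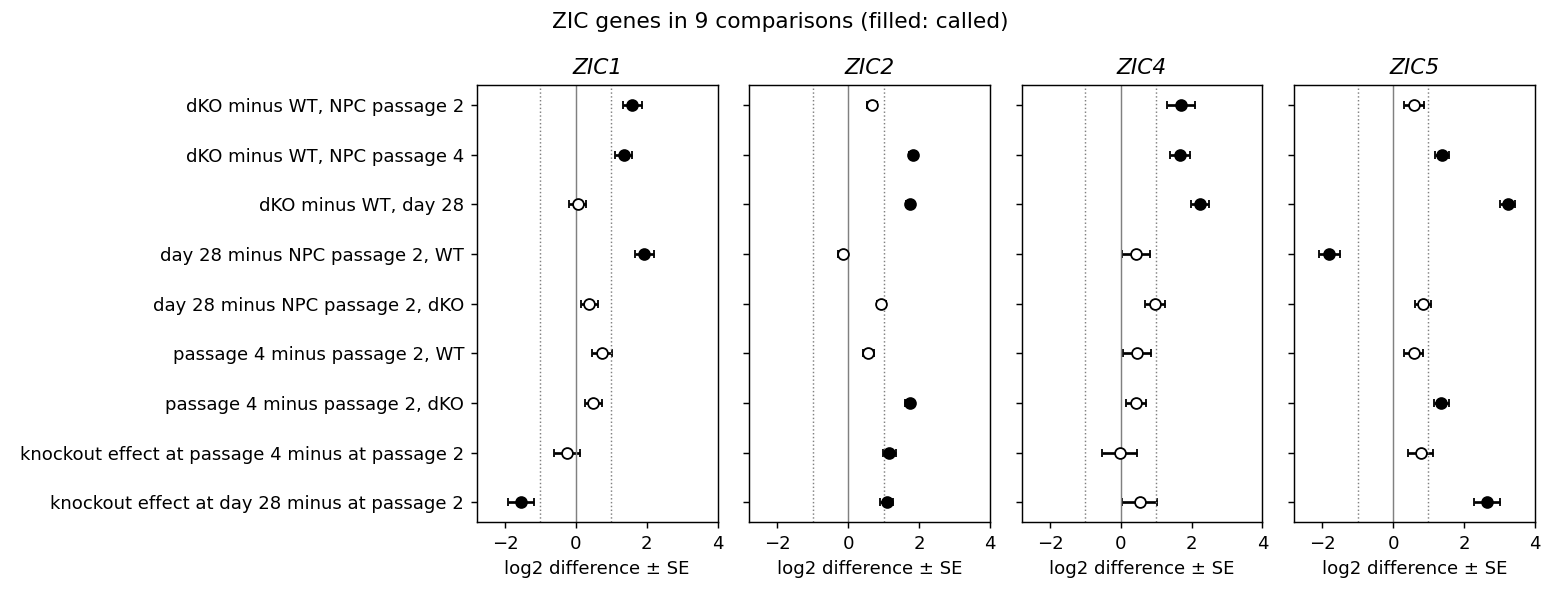
Log2 difference ± SE (x axis) of each ZIC gene in the 9 comparisons (rows), from the edgeR fit. Filled points were called, open points were not, and dotted lines mark a fold change of 2. The 4 genes lay right of the dotted line at passage 4, and ZIC1 lay at 0.05 in the comparison of genotypes at day 28.

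Differentiation moved the genes apart in WT cells. Between WT NPCs at passage 2 and WT-D28, ZIC1 was 3.81-fold higher after differentiation (log2 difference 1.93, SE 0.27) and ZIC5 was 3.49-fold lower (-1.80, SE 0.30), so 2 members were called where 24.4% of tested genes were. ZIC2 (-0.14, SE 0.14) and ZIC4 (0.44, SE 0.39) were not called. Without WT sample 1 of passage 2 the differences of ZIC1 and ZIC4 were 1.51 and 0.04, and without WT sample 2 they were 2.75 and 1.43, in which case ZIC4 was called as well. In dKO cells the same interval gave 0.38 (SE 0.24) for ZIC1, 0.94 (SE 0.13) for ZIC2, 0.97 (SE 0.28) for ZIC4 and 0.85 (SE 0.22) for ZIC5. None of the 4 was called there by edgeR or by DESeq2, against 7.14% of all genes, although 3 passed the p threshold of the rule. ZIC2, ZIC4 and ZIC5 lay just under the fold threshold of 1 on the log2 scale. Without dKO sample 2 of passage 2, ZIC2, ZIC4 and ZIC5 were called (3 members), and without sample 1 or sample 2 of dKO-D28, 2 members and 1 member were.

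Between passage 2 and passage 4, no member was called in WT NPCs by edgeR or DESeq2, where 19.8% of tested genes were, and 3 passed the p threshold alone. The log2 differences were 0.74 (SE 0.27) for ZIC1, 0.57 (SE 0.14) for ZIC2, 0.46 (SE 0.40) for ZIC4 and 0.58 (SE 0.27) for ZIC5. Without WT sample 2 of passage 2, ZIC1 and ZIC4 were called, at 1.57 and 1.45. In dKO NPCs, ZIC2 was 3.32-fold higher at passage 4 (1.73, SE 0.13) and ZIC5 was 2.58-fold higher (1.36, SE 0.22), and 2 members were therefore called where 9.83% of tested genes were. ZIC1 (0.49, SE 0.24) and ZIC4 (0.43, SE 0.28) were not called. In dKO NPCs, then, the genes called between passages were those on chromosome 13, and those on chromosome 3 were already 3.03-fold and 3.27-fold above WT at passage 2.

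The change of the knockout difference over time was read from the same fit, from contrasts that share the passage 2 samples. From passage 2 to passage 4 the dKO minus WT difference of ZIC2 grew by 1.16 (SE 0.19) on the log2 scale, and this 1 member was called where 19.3% of tested genes were. Its change was 0.87 and not called once counts were corrected for length and GC content. The change was 0.78 (SE 0.36) for ZIC5, -0.25 (SE 0.36) for ZIC1 and -0.03 (SE 0.49) for ZIC4. ZIC1 was called as well without WT sample 2 of passage 2 (-1.08), and ZIC5 without dKO sample 2 (1.17). From passage 2 to day 28 the difference grew by 2.65 (SE 0.37) for ZIC5 and by 1.08 (SE 0.19) for ZIC2, and it shrank for ZIC1 (-1.55, SE 0.36). The ZIC1 change was -1.14 without WT sample 1 of passage 2 and -2.38 without WT sample 2, and was called in both cases. These 3 members were called, with a background of 23.2%, and ZIC4 (0.54, SE 0.49) was not. Without sample 2 of dKO-D28, the change of ZIC2 was 0.96 and not called. For ZIC1 the WT-D28 samples lay within the range of the dKO-D28 samples, whereas for ZIC5 the WT level was lower than at passage 2.

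The make-up of the family's transcripts was compared between genes per length, as RPKM (CPM per kb of annotated exons). The summed RPKM of the 4 genes averaged 50.2 in WT against 110.6 in dKO NPCs at passage 2. At passage 4 the means were 79.4 and 241.7, and at day 28 they were 92.7 and 179.6. In WT-D28, ZIC1 made up 69.6% of the sum and ZIC5 2.25%. In dKO-D28, ZIC1 made up 37.1%, ZIC2 41.1%, ZIC4 10.97% and ZIC5 10.9%. In NPCs, ZIC2 held the largest mean share in WT at passage 2 (49.5%, from 56.8% and 42.1% in its 2 samples). It also held it in both genotypes at passage 4 (45.3% in WT and 53.0% in dKO), and ZIC1 held it in dKO at passage 2 (46.2%). Dividing by the length of the canonical transcript in place of all annotated exons put ZIC1 at 70.4% in WT-D28, but it also put ZIC1 (86.4 RPKM) before ZIC2 (82.0 RPKM) in dKO-D28, so the order of these genes there depends on the length used. In WT sample 2 of passage 2 it likewise put ZIC1 (40.1%) before ZIC2 (37.8%).

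Ratios of counts within a pair do not depend on the length. The ratio of ZIC1 to ZIC4 counts was 12.1 and 12.9 in the WT-D28 samples and lay between 2.25 and 5.63 in the other 10. The ratio of ZIC2 to ZIC5 counts was 7.85 ± 1.20 (SD, n = 2) in WT-D28 and lay between 2.24 and 3.42 in the other 10. In both pairs, the samples of WT-D28 were thus the highest and did not overlap any other group.

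**Figure D3:**
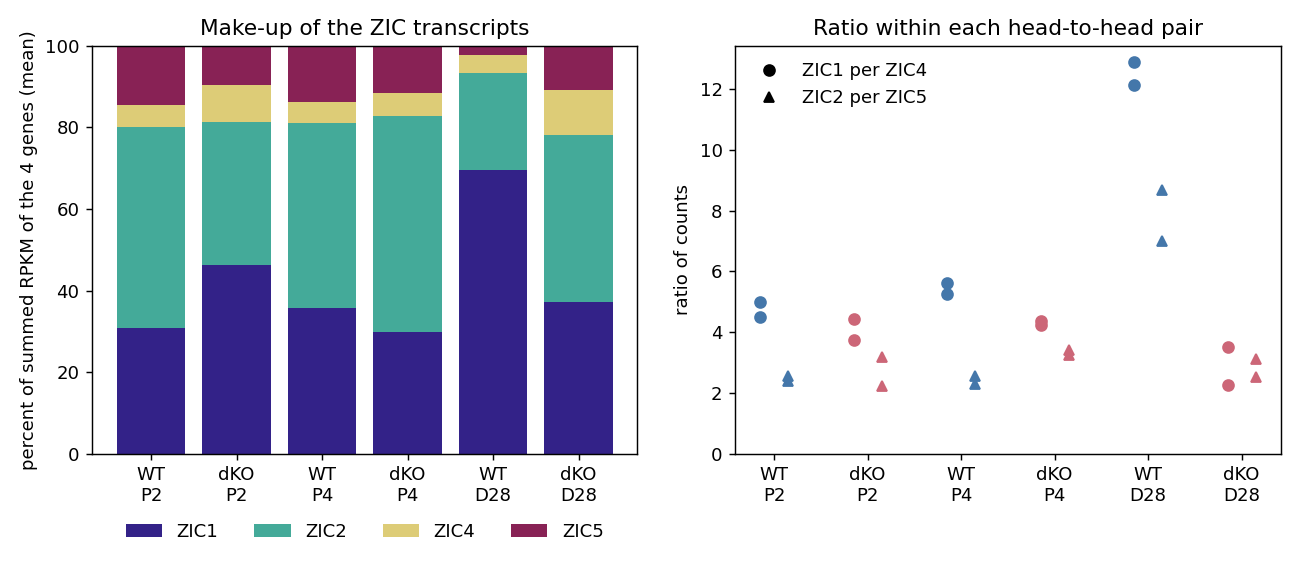
Left, mean share of each gene in the summed RPKM of the 4 genes (y axis, percent) in each group (x axis). Right, ratio of counts within each head-to-head pair (y axis, starting at 0) per sample, circles for ZIC1 per ZIC4 and triangles for ZIC2 per ZIC5, with WT in blue and dKO in red. WT-D28 stands apart with 69.6% ZIC1 and ratios of 12.1 and 12.9.

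Across the 12 samples, Pearson's r of log2(CPM + 1) was 0.88 between ZIC2 and ZIC5 and 0.79 between ZIC1 and ZIC4, the pairs of a locus. It was also 0.79 between ZIC2 and ZIC4, which lie on different chromosomes, and 0.20 between ZIC1 and ZIC5. These points share libraries and 6 groups, and r is given as a description. Among all tested genes, those most like ZIC1 were CD276, an immune checkpoint ligand (r = 0.93), AP4M1, a subunit of the AP-4 adaptor complex (0.92), and the gene ENSG00000270094 (0.92). Their group means ran from 173 to 249 CPM for CD276, from 43.6 to 71.4 CPM for AP4M1 and from 2.52 to 6.16 CPM for ENSG00000270094. Most like ZIC2 were CABLES1, a CDK-binding protein (0.98), CXXC5, a zinc finger protein (0.97), and LMX1A, the LIM homeobox factor of the roof plate (0.97).

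The genes most like ZIC4 were its antisense neighbour ZIC4-AS1 (r = 0.96), GRAMD2B (0.94) and VMP1, a membrane protein of autophagy (0.93). Those most like ZIC5 were TGIF1, a homeodomain repressor mutated in holoprosencephaly (0.98), UBE3B, a ubiquitin ligase (0.97), and WNT7B, a Wnt ligand (0.97). TGIF1 and WNT7B followed ZIC5 in having their lowest mean in WT-D28, 11.9 and 1.95 CPM, and their highest in dKO NPCs at passage 4, 142 and 177 CPM.

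The surroundings of the 2 loci were then examined. Of 7 annotated genes whose starts lie within 500 kb of the ZIC1 and ZIC4 starts, 1 passed the filter, and of 17 around ZIC2 and ZIC5, 2 did. ZIC4-AS1, a long noncoding RNA at chr3:147386967-147387453 antisense to the end of ZIC4, had 0 and 2 counts in WT NPCs at passage 2, and 8 and 6 counts in the dKO samples. It had 9 and 14 counts in WT (mean 3.30 CPM) and 58 and 42 counts in dKO (mean 11.9 CPM) at passage 4. At day 28 it had 25 counts in each WT sample (mean 2.76 CPM) and 78 and 52 counts in dKO (mean 14.5 CPM). Its mean over the 12 samples, 26.6 counts, was close to the filter's 20 and came mostly from the dKO samples. The genotypes did not overlap at any stage. It was called higher in dKO at each stage, with log2 differences of 2.40 (SE 0.94), 1.83 (SE 0.39) and 2.37 (SE 0.34), and edgeR adjusted p of 0.221, 0.00112 and 1.8e-05. The sources used here do not say whether reads were counted by strand, so reads of ZIC4 and ZIC4-AS1 cannot be told apart.

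The other tested neighbours, both beside ZIC2 and ZIC5, were PCCA, a subunit of propionyl-CoA carboxylase, and CLYBL, a mitochondrial citramalyl-CoA lyase. CLYBL was not called in NPCs, with differences of -0.28 (SE 0.45) at passage 2 and 0.52 (SE 0.32) at passage 4 (edgeR adjusted p = 0.851 and 0.192), and it was called at day 28, where it was 1.07 (SE 0.27) higher in dKO (adjusted p = 0.00339). The difference of PCCA stayed under the fold threshold at each stage, at -0.06, 0.34 and 0.60 (adjusted p = 0.935, 0.102 and 0.00382). Over the same stages ZIC5 differed by 0.59, 1.37 and 3.24.

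The zinc finger relatives of ZIC were described next, from lists whose choice is given with the methods. Of 6 GLI and GLIS genes, GLI2, GLI3 and GLIS3 passed the filter. None of these 3 was called by edgeR at passage 2 or passage 4, where 4.42% and 22.3% of all tested genes were. At each of these passages, 2 of the 3 genes were past the unadjusted p threshold. At day 28, GLI2 measured 9.26 and 9.84 CPM in WT, against 97.4 and 109 CPM in the dKO samples (log2 difference 3.43, edgeR adjusted p = 1.33e-11). GLI3, the main repressor among the GLI proteins, measured 51.7 to 55.9 CPM in WT-D28 and 456 to 651 CPM in dKO-D28 (3.36, adjusted p = 5.95e-11). GLIS3 was lower in dKO-D28 (-1.44, adjusted p = 3.71e-06). All 3 were thus called at day 28, where 24.2% of all tested genes were. Median differences of the 3 genes were -0.19, 0.31 and 3.36 at the 3 stages, against all-gene medians between 0.0026 and 0.02.

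Dorsal neural tube and neural plate border genes, with which ZIC genes are expressed in the embryo, were listed next. Of 18 listed, 12 passed the filter. That filter is a mean over all 12 samples, and some of these genes passed it through their dKO samples. PAX3 was at 0 in every WT sample, and MSX2 was at no more than 2.00 CPM in any of them. Genes let in this way tilt the counts and medians below towards dKO. For PAX3 and MSX2 no p-value is therefore printed, and those of the other genes of this list are a description only. Called higher in dKO were 2 of the 12 at passage 2, 8 at passage 4 and 10 at day 28, and called lower were 0, 0 and 1, where 4.42%, 22.3% and 24.2% of all tested genes were called in either direction. At passage 4, SOX9 (-0.89), TFAP2B (-2.46), TFAP2A (-0.26) and DLX5 (0.13) were not called, nor was SOX9 at day 28 (0.64). The median log2 difference was 0.65, 2.47 and 4.15. With genes at 0 throughout a group set to the bound that 3 counts per sample allow, or left out where both groups were at or under it, it was 0.61, 2.47 and 4.15. Many of the fitted folds rest on WT samples at or near 0, so levels are given in their place.

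At passage 2 the 2 called members of that list were PAX7, a paired box factor of the dorsal neural tube, with 0 to 2.98 CPM in WT and 6.76 to 8.49 CPM in dKO (edgeR adjusted p = 0.128), and DLX5, a homeobox factor of the plate border (difference 1.03, adjusted p = 0.0329). At passage 4, PAX3, an early dorsal and neural crest factor, was at 0 in both WT samples and at 32.1 to 33.1 CPM in dKO. MSX2, a target of BMP signalling, was at 1.03 to 2.00 CPM in WT and at 85.3 to 88.5 CPM in dKO. At day 28, PAX7 was at 0 in WT and at 62.1 to 70.5 CPM in dKO (adjusted p = 4.15e-11), and PAX3 was at 0 and at 5.09 to 31.3 CPM. DLX5, also a factor of ventral forebrain neurons, was lower in dKO-D28 (-1.84, adjusted p = 3.19e-07).

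Of the 11 Hedgehog pathway genes listed, all passed the filter. None was called at passage 2 by edgeR, where 4.42% of all tested genes were, and 1 of the list passed the unadjusted p threshold. In dKO, 3 were called higher and 2 lower at passage 4, and 4 higher and 4 lower at day 28, with 22.3% and 24.2% of all tested genes called. SHH, the ligand of the ventral midline, measured 2.67 to 5.91 CPM in WT and 0.234 to 0.245 CPM in dKO at passage 4 (edgeR adjusted p = 5.54e-05), and 62.4 to 63.5 CPM in WT-D28 against 0.193 to 0.485 CPM in dKO-D28 (adjusted p = 1.35e-10). Among the genes called higher were the co-receptors GAS1 (1.37 at passage 4 and 6.93 at day 28, adjusted p = 0.0271 and 3.34e-05), BOC (1.15 at passage 4, adjusted p = 6.16e-07) and CDON (4.14 at day 28, adjusted p = 3.14e-08). The list's medians were -0.0015, 0.12 and 0.02 at the 3 stages, with called members on both sides of 0 at passage 4 and day 28.

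**Figure D4:**
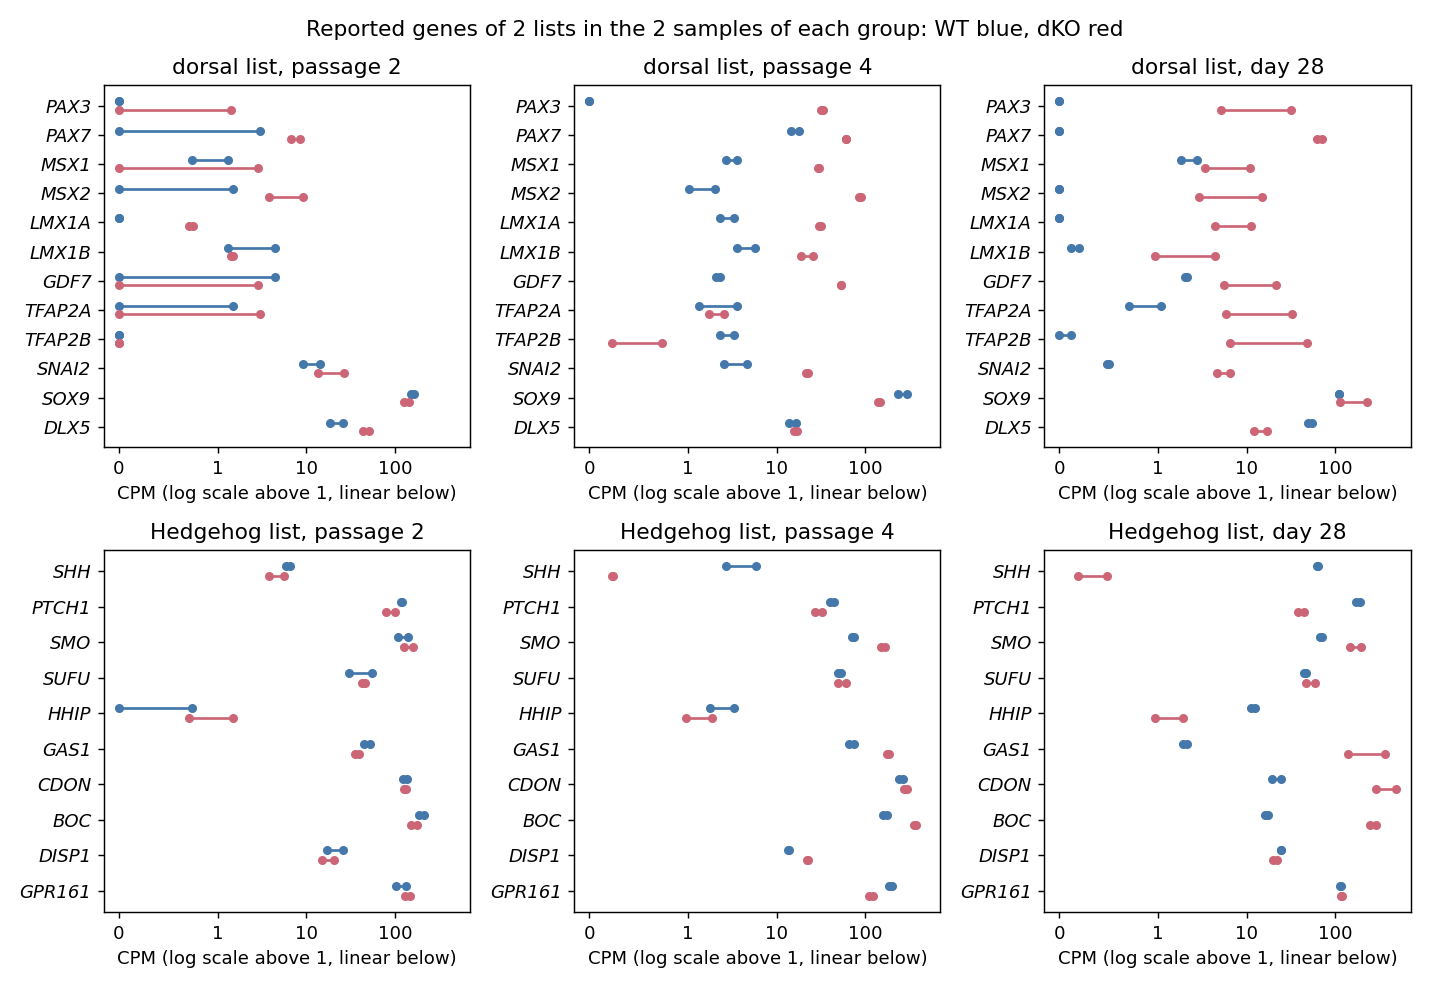
Levels (x axis, CPM, log scale above 1 and linear below) of the tested and reported genes (rows) of the dorsal list (top) and the Hedgehog list (bottom) at passage 2, passage 4 and day 28. The points joined by a line are the 2 samples of a group, WT in blue and dKO in red. PAX3 was at 0 in WT and at 32.1 to 33.1 CPM in dKO at passage 4, and SHH was at 62.4 to 63.5 CPM in WT-D28 and under 1 CPM in dKO-D28.

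Genes that, like ZIC2, are mutated in holoprosencephaly or act with such genes were the last list, and 5 of its 6 genes passed the filter. SHH and CDON are also in the Hedgehog list. None was called at passage 2 by edgeR, where 4.42% of all tested genes were, and 2 of the list passed the unadjusted p threshold. In dKO, 2 were called higher and 1 lower at passage 4, and 2 higher and 2 lower at day 28, beside the same 22.3% and 24.2% of all tested genes. The list's medians were 0.0076, 0.46 and -0.26. SIX3, a homeobox factor of the anterior forebrain, was higher in dKO at passage 4 (1.89, edgeR adjusted p = 2.49e-06), where it measured at most 12.7 CPM in WT and at least 39.0 CPM in dKO. TGIF1 was higher at passage 4 (1.85, adjusted p = 4.56e-08) and at day 28 (2.66, adjusted p = 1.12e-09). FOXH1, a partner of Nodal signalling, was lower at day 28 (-1.21, adjusted p = 0.000133).

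Cell type markers moved with the groups as well, and their part in the ZIC values was not tested. In bulk RNA, more cells of a type and more transcript per cell cannot be told apart. Progenitor markers summed to 3383 to 7545 CPM over all groups, and 8 of 8 markers had counts in each group except dKO NPCs, where HES5 was at 0. VIM and NES made up most of each sum. At day 28 the sum was 4468 to 4521 CPM in WT and 3383 to 4219 CPM in dKO. SOX2, SOX1, NES and FABP7 were lower in dKO-D28. PAX6 (11.7 to 11.9 CPM in WT, 190 to 356 CPM in dKO) and PROM1 (2.88 to 3.02 CPM, 75.4 to 109 CPM) were higher in dKO-D28. At passage 4, FABP7 was at 1720 to 1884 CPM in WT and 79.2 to 87.1 CPM in dKO, while PROM1 was higher in dKO. Neuron markers (8 of 8 detected in every group) summed to 4630 to 5213 CPM in WT NPCs at passage 4 and to 4054 to 4081 CPM in WT-D28, against 633 to 1388 CPM elsewhere. Astrocyte markers summed to 2019 to 2234 CPM in WT NPCs at passage 4 and 417 to 420 CPM in WT-D28, and to 33.2 to 136 CPM elsewhere, with S100B and ALDH1L1 at 0 in passage 2 NPCs. Most of the sum in WT NPCs at passage 4 was SLC1A3 (1781 to 1946 CPM). GFAP was at 21.7 to 23.6 CPM there and at 14.9 to 18.2 CPM in WT-D28. AQP4 was higher in WT-D28 (13.3 to 13.6 CPM) than in WT NPCs at passage 4 (4.68 to 5.14 CPM).

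Of the cell types known for ZIC expression outside NPCs, meningeal and mesenchymal markers summed to 871 to 1056 CPM in dKO NPCs at passage 2 and 1758 to 1779 CPM in dKO NPCs at passage 4, against 157 to 414 CPM in the other groups. Between 7 and 9 of the 9 markers had counts. Most of the sum in dKO NPCs at passage 4 came from the collagen genes COL1A1, COL1A2 and COL3A1. COL1A2 was at 803 to 806 CPM there against at most 218.5 CPM in any other group. At passage 4, DCN, a fibroblast proteoglycan, was lower in dKO (0.490 to 1.41 CPM) than in WT (3.60 to 5.68 CPM). PDGFRB was also lower in dKO at that passage (29.04 to 39.24 CPM) than in WT (39.55 to 42.43 CPM), while the other markers were higher. At day 28, PDGFRB was at least 92.9 CPM in WT and at most 39.03 CPM in dKO. COL3A1 was also lower in dKO-D28 (7.33 to 18.7 CPM) than in WT-D28 (52.2 to 55.6 CPM), while COL1A1 and COL1A2 were higher in dKO-D28. DCN was at 0 in passage 2 NPCs of both genotypes. Neural crest markers (2 to 6 of 6 with counts) summed to 57.6 to 58.3 CPM in dKO NPCs at passage 4 and 24.2 to 117 CPM in dKO-D28, against 1.81 to 30.0 CPM elsewhere. Of these markers, PAX3 was at 0 in WT and at 32.1 to 33.1 CPM in dKO at passage 4. TFAP2B was lower in dKO at that passage (0.234 to 0.736 CPM, against 2.31 to 3.34 CPM in WT), and TFAP2A overlapped between the genotypes. In WT-D28, TFAP2B measured 0 to 0.120 CPM, against 6.54 to 48.2 CPM in dKO-D28. SOX10 and FOXD3, the defining crest factors, measured under 1 CPM in every sample, a level that the passage 2 libraries cannot resolve, since 3 counts there were 2.12 to 3.92 CPM. Cerebellar granule lineage markers (3 to 6 of 6 with counts) summed to 179 to 305 CPM in the NPC groups, 16.8 to 16.9 CPM in WT-D28 and 203 to 365 CPM in dKO-D28. Most of each sum was PAX6, also a progenitor marker, at 11.7 to 11.9 CPM in WT-D28 and 190 to 356 CPM in dKO-D28, while ATOH1, which defines the lineage, was at 0 in 5 groups and at 0.234 to 1.23 CPM in dKO NPCs at passage 4. Dorsal forebrain markers (5 of 5 in every group) summed to 632 to 1364 CPM, and 5 HOX genes of the hindbrain and spinal cord summed to at most 6.68 CPM. Pluripotent stem cell markers (2 or 3 of 5 with counts) summed to 90.5 to 131 CPM in passage 2 NPCs of both genotypes. At passage 4 the sum was 1.28 to 1.67 CPM in WT against 34.4 to 37.8 CPM in dKO, and at day 28 it was 0.604 to 0.960 CPM in WT against 47.0 to 86.3 CPM in dKO. These counts came from LIN28A, an RNA-binding protein (32.2 to 80.3 CPM in dKO-D28), and DPPA4 (5.98 to 14.06 CPM there), with TDGF1 at no more than 0.727 CPM in any sample. The defining stem cell genes POU5F1 and NANOG were at 0 in every sample, which allows up to 3.92 CPM in the smallest library.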

How the data were processed

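RNA was extracted with TRIzol and made into TruSeq libraries. For alignment to hg38 the authors used HISAT2 2.0.4, and for counting per Ensembl gene SAMtools 1.3.1 and htseq-count (HTSeq 0.6.0). The deposited values are raw read counts per gene for each of the 12 samples, without normalization. These counts precede the authors' normalization for GC content and length and their test with DESeq 1.18.1. The annotation release and strand setting are not given in the sources used here. GENCODE v44 gave symbols, positions and lengths for 98.7% of the genes.

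Groups come from the sample labels. Counts were fitted with edgeR 4.0.16 in R 4.3.3 (TMM, robust quasi-likelihood test, 6 group means, genes averaging 20 counts or more), and p-values outside the family were adjusted by the Benjamini-Hochberg method over the 13454 genes tested. The SE is the log2 difference divided by the square root of F. On simulated counts for passage 4, 96% of genes changed by 1.5 (log2) and 0.385% of unchanged genes were called. These rates describe the simulated counts of that comparison only. They are not error rates of the real samples, whose replicates differed by more than counting noise, most of all in dKO-D28. With 2 samples against 2, an exact permutation test cannot go below p = 0.333. Intervals and floors of 3 counts cover counting error only. The members, gene lists and marker lists were chosen with earlier results of these data known. Named genes are the members, the 3 genes most correlated with each, tested genes within 500 kb, at most 2 called genes per direction of each list, and KDM6A and KDM6B. Marker genes named beside their lists, and list genes named as not called, fall outside this rule and were chosen after their values were seen. The fifth gene of the family and 1 gene of the Hedgehog list, which stays in that list's counts, are not reported here. The alternatives tried were DESeq2 1.42.0, adjusted p, other filters, fits of fewer samples, a correction for GC content and length, a replicate block and leaving out each sample. The RPKM by canonical transcript was added after the data were examined.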

Additional observations from a re-analysis of the deposited data

Results flagged for a closer look

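In all, 4 differences between stages were picked out because the fit's own contrast found the knockout difference of a member to change between stages by more than the thresholds. For ZIC2 the dKO minus WT difference was 1.16 (SE 0.19) larger on the log2 scale at passage 4 than at passage 2, and 1.08 (SE 0.19) larger at day 28 than at passage 2. For ZIC5 it was 2.65 (SE 0.37) larger at day 28 than at passage 2. For ZIC1 it went the other way, with a change of -1.55 (SE 0.36) between passage 2 and day 28, which was -1.14 without WT sample 1 of passage 2 and -2.38 without WT sample 2. The 4 contrasts share the passage 2 samples, which had the fewest counts, and are a description because the family was chosen on these samples.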

How the results depend on the processing

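The counts of called members at passage 4 (4), at day 28 (3), and between passages in dKO (2) were the same under every alternative run. For WT differentiation the count was 2 except without WT sample 2 of passage 2, where ZIC4 was called as well (1.43) and it was 3. DESeq2, a minimum of 10 counts in each sample and the replicate block changed no call of a member. With the replicate block, 2, 4 and 3 members were called at passage 2, passage 4 and day 28. Over 15 pairs of groups, deviations of same-numbered samples correlated by 0.018 on average (-0.058 to 0.19), so the samples were not treated as paired. At passage 2 the count was 1 with adjusted p (ZIC4 lost) and 1 with only the samples of that comparison (ZIC1 lost). For dKO differentiation it was 1, not 0, with at least 1 count in any sample and with the correction for GC content and length, and 0 to 3 when a sample was left out. For WT passages it was 0 to 2 when a sample was left out, and for the change of the knockout difference to passage 4 it was 0 with that correction (ZIC2 at 0.87) and 1 to 2 when a sample was left out. Without dKO-D28 sample 2, the ZIC2 change to day 28 was 0.96 and not called, which left 2 members.

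Directions turned only for differences that were not called. The ZIC1 difference at day 28 was -0.011 with at least 1 count in any sample and ran from -0.038 to 0.12 when a sample was left out. The changes of the knockout difference to passage 4 ran from -1.08 to 0.16 for ZIC1 and from -1.02 to 0.37 for ZIC4, which was 0.092 with the correction, and the change of ZIC4 to day 28 ran from -0.46 to 0.93. The causes were not tested. Counts were low in WT sample 1 of passage 2, with 50 for ZIC1 and 10 for ZIC4.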
